A study of Mus musculus with 18 samples.

Results

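The comparison described here is whether 24 hours of OK-432 moved transcript levels by the same amount in LL2 tumours as in tumours of the CT26 lineage. OK-432 is a killed, penicillin-treated preparation of Streptococcus pyogenes that is injected into tumours to provoke inflammation. All 18 libraries of the series entered it, in 6 groups of 3: CT26, CT26NYESO1 and LL2 tumours, each without OK-432 (Ctrl) and with it (OK432). CT26 cells derive from a BALB/c colon carcinoma, and the name CT26NYESO1 (CT26-NY-ESO-1) refers to a human tumour antigen. LL2 (LL/2), also known as Lewis lung carcinoma, arose in a C57BL/6 mouse. The cells were inoculated under the skin of BALB/cJ or C57BL/6J mice, OK-432 went into the tumours, and all tumours were collected on day 14. Tumour line and host strain cannot be told apart in this design. Whether each library stands for its own mouse is not in the labels, nor is what the controls were given, so each p-value reflects library-to-library spread, which could be technical in part.

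For each gene, the OK-432 effect in a tumour type was the mean log2(TPM + 1) of the OK432 libraries minus that of the Ctrl libraries, where TPM (transcript abundance scaled to a fixed total) is a share of the library. The value studied was the effect in LL2 minus the mean of the effects in CT26 and CT26NYESO1. It is called the difference of effects below, and a negative value means a lower effect in LL2. Of the 55291 genes in the table, 16816 had at least 1 TPM in at least 3 libraries and were tested with limma. Genes with a Benjamini-Hochberg adjusted p under 0.05 were called. The 297 genes that reached 1 TPM in exactly 3 libraries, just inside this rule, had a median mean level of 0.571 TPM, and the 430 that reached it in 2 libraries, just outside, had 0.489 TPM.

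Type I interferons signal through a receptor to a transcription factor complex, which includes STAT2 and IRF9 and binds the interferon-stimulated response element in the promoters of genes such as Ifit1, Isg15 and Rsad2. Interferon-gamma signals through its own receptor to a partly shared set of genes, including guanylate-binding proteins and the chemokines Cxcl9 and Cxcl10. Granulocyte colony-stimulating factor, encoded by Csf3, is the cytokine that drives neutrophil production and release, and is induced by bacterial products and by interleukin-17, interleukin-1 and TNF. Its receptor Csf3r marks neutrophils, as do the calcium-binding proteins S100a8 and S100a9.

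Promoter stretches of 4 interferon-stimulated genes are shown because these genes had some of the lowest differences of effects in their list. They come from RefSeq on GRCm38.p6 (the sequence of mm10), each is 120 bases upstream of the start site and reads 5' to 3' on the gene's strand. Capitals mark matches to the core of the interferon-stimulated response element, GAAANNGAAA, on either strand. The stretches lie at chr19:34640739-34640858 (plus strand) for Ifit1, chr4:156200826-156200945 (minus) for Isg15, chr19:34583335-34583454 (plus) for Ifit3 and chr12:26456508-26456627 (minus) for Rsad2.
Ifit1: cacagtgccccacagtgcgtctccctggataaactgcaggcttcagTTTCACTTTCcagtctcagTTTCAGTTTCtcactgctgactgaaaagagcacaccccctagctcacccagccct
Isg15: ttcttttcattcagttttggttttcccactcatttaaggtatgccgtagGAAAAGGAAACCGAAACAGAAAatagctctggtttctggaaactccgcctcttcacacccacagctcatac
Ifit3: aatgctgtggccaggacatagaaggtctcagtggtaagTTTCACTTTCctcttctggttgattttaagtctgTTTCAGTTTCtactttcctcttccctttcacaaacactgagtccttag
Rsad2: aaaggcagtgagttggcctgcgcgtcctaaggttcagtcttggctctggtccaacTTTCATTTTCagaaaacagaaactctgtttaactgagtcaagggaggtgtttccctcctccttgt
Ifit1 and Ifit3 each held 2 matches, Rsad2 held 1, and Isg15 held 3 that overlap in 1 run. In the 250 bases upstream of the start, the motif was found in 12 of the 30 type I interferon-stimulated genes with a promoter entry (40.0%), in 11 of 15 interferon-gamma-induced genes (73.3%) and in 936 of all 27025 promoters (3.46%). A match is a run of letters and was not tested as a binding site here.

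Across the 16816 tested genes, no gene had a higher effect in LL2 at the threshold and 1, Eif3j2, had a lower one (limma, 0.00595% of genes called). The next smallest adjusted p was 0.456. At an unadjusted p under 0.05 there were 590 genes higher (3.51%) and 458 lower (2.72%), 1048 in all. The median standard error of a difference of effects was 0.13 and the median 95% interval reached 0.28 on either side of the estimate, so for a typical gene differences of that size were not resolved before any adjustment. A difference of at least 1 was estimated for 42 genes, 15 higher and 27 lower. Against CT26 alone and against CT26NYESO1 alone, Eif3j2 was again the 1 gene called (0.00595% in each).

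**Figure D1:**
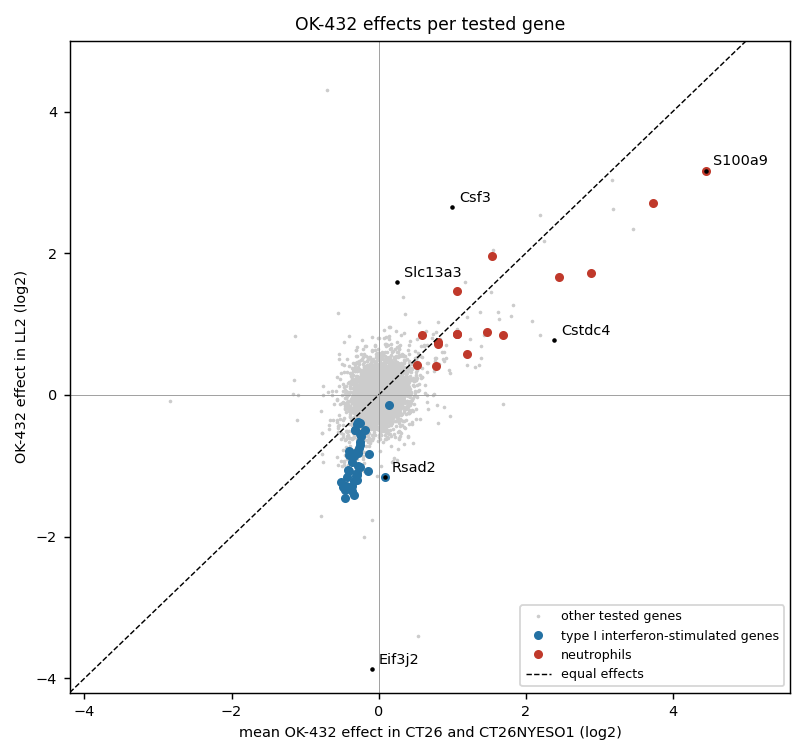
OK-432 effect in LL2 (vertical axis) against the mean effect in CT26 and CT26NYESO1 (horizontal axis), both in log2(TPM + 1) units, for the 16816 tested genes. Type I interferon-stimulated genes (blue) all lie under the dashed line of equal effects, neutrophil markers (red) lie on both sides of it, and of the genes plotted Eif3j2 alone was called.

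Levels of 4 marker genes were set beside the labels. Krt8 and Krt18, keratins of simple epithelia, were at 146 to 261 TPM and 227 to 305 TPM in the 6 LL2 libraries. In the CT26 and CT26NYESO1 libraries Krt8 was at 0.199 TPM at most and Krt18 at 21.3 TPM at most. H2-Ea, a class II gene whose expression differs between mouse strains, was at 105 to 517 TPM in the 12 CT26 and CT26NYESO1 libraries and listed at 0 in all 6 LL2 libraries. Ptprc, which encodes the leukocyte marker CD45, was at 27.8 to 88.7 TPM in all 18 libraries. These 4 genes were chosen after their values were seen, so they describe the libraries and are no independent check of the labels. Of the 14 listed epithelial markers, which include both keratins, 5 passed the filter. The LL2 controls varied among themselves in interferon genes, and CT26NYESO1_OK432 replicate 2 stood apart from its group in neutrophil genes, and values without these libraries are given beside the results they move most.

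Csf3 had a difference of effects of 1.65 (SE 0.46, 95% interval 0.67 to 2.63), which did not pass the adjustment (limma, unadjusted p = 0.00265, adjusted p = 0.568). The gene lies on chromosome 11 at 98701263 to 98703629 of mm10 and has 5 exons. LL2 controls had 0.434, 1.55 and 1.5 TPM and LL2 OK432 tumours 12.7, 10.1 and 13.8 TPM. CT26 controls had 0.164, 0.226 and 0.194 TPM and treated CT26 tumours 0.444, 0.780 and 0.282 TPM. CT26NYESO1 controls were at 0.141, 0 and 0.0721 TPM, and their treated tumours at 5.10, 0.438 and 3.59 TPM. Treated and control libraries did not overlap in any of the 3 tumour types, and the treated LL2 libraries held the highest levels of the 18. In CT26 the gap lay between 0.226 and 0.282 TPM, both under 1 TPM. Groups of 3 can separate by chance, and the share of all tested genes that did so is not given, here or for genes below.

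The OK-432 effect on Csf3 was 0.32 in CT26, 1.68 in CT26NYESO1 and 2.65 in LL2, so CT26NYESO1 lay between the other lines on the log2(TPM + 1) scale. That order depends on the pseudocount, because control levels were low. By group means the fold rise was larger in CT26NYESO1 (0.0711 to 3.04 TPM) than in LL2 (1.16 to 12.2 TPM). Within LL2 Csf3 rose (adjusted p = 0.0198), and in CT26NYESO1 the adjusted p was 0.0529. Against CT26 the LL2 effect was larger by 2.33 (adjusted p = 0.844), and against CT26NYESO1 by 0.97 (adjusted p = 0.638). The difference from CT26 was called when CT26NYESO1_OK432 replicate 2 was left out (2.33, adjusted p = 0.00433) and when the 12 LL2 and CT26 libraries were fitted alone (2.33, adjusted p = 0.0346), both by limma. The estimate itself is the same in these fits, and the spread shared by the groups differs. With each library left out in turn, the difference from the CT26-derived mean ran from 1.33 to 1.86, and with a pseudocount of 0.1 TPM it was 1.09 (adjusted p = 0.929).

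**Figure D2:**
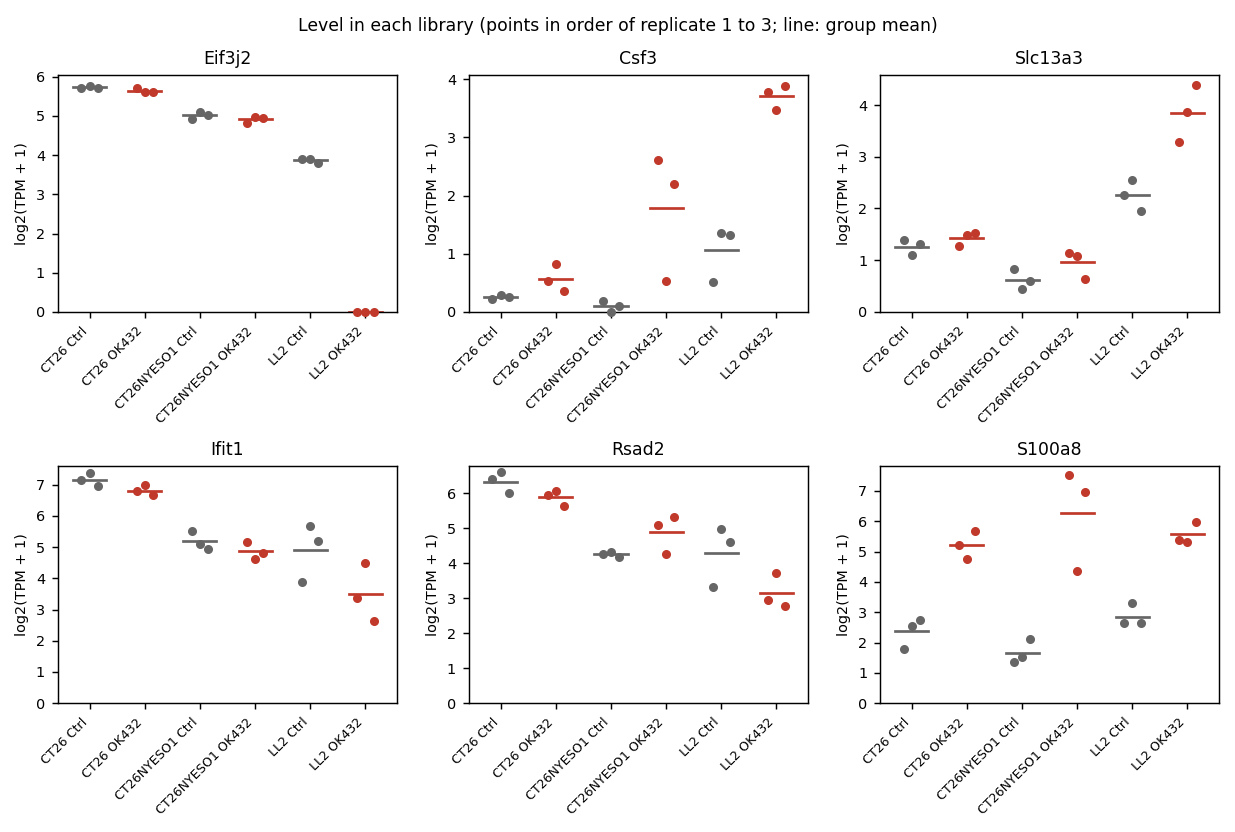
Level of 6 genes in each of the 18 libraries, as log2(TPM + 1) (vertical axes), by group (horizontal axes), with controls in grey, OK432 in red and a line at the group mean. Eif3j2 is listed at 0 in the treated LL2 libraries, Csf3 and Slc13a3 are highest in them, Ifit1 and Rsad2 overlap between LL2 groups, and S100a8 is higher with treatment in all 3 tumour types.

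Of the 10 listed colony-stimulating factors and receptors, Csf3 included, 9 were tested and none was called. The median difference of effects of the 9 was −0.07, beside −0.01 over all tested genes, and those apart from Csf3 lay between −0.18 and 0.16. Csf3r, the receptor of the Csf3 product, had −0.07 (95% interval −0.74 to 0.60). Its own effects were 0.40 in CT26, 1.22 in CT26NYESO1 and 0.74 in LL2, with no overlap between treated and control libraries in any of them. Csf1, the macrophage growth factor, was at 111 to 141 TPM in treated LL2 tumours and had a difference of 0.05. Csf2 was at 1.08 TPM at most and was not tested.

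Of 20 listed inducers of Csf3 and their mediators 15 were tested, with a median difference of −0.05 and none called. The transcription factor Cebpb had 0.73 (unadjusted p = 0.0166, adjusted p = 0.684), with effects of −0.25 in CT26, 0.40 in CT26NYESO1 and 0.80 in LL2. The interleukin-1 receptor subunit Il1rap had 0.30 and the IL-17 adaptor Traf3ip2 −0.27, with adjusted p of 0.795 and 0.8. Cebpb, Il1rap and Traf3ip2 were chosen after their values were seen and are no independent evidence. The receptor Il17ra had −0.05. The cytokine Tnf had 0.01 (95% interval −0.45 to 0.46). Il6 had 0.01 (−0.70 to 0.72), an average of 0.50 against CT26 and −0.48 against CT26NYESO1. Il1b had −0.68 (−1.81 to 0.45), an average of 0.42 against CT26 and −1.78 against CT26NYESO1, and −0.99 without CT26NYESO1_OK432 replicate 2. Ptgs2, which encodes the prostaglandin synthase COX-2, had 1.04 (unadjusted p = 0.0206, adjusted p = 0.708). It was at 27.6, 26.4 and 22.1 TPM in LL2 controls and at 70.4, 40.0 and 108 TPM in treated LL2 tumours. Ptgs2 was also chosen after its values were seen.

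Type I interferon-stimulated genes had lower effects in LL2 as a list, and none of them was called. All 40 members were tested, all 40 had a difference of effects below 0, and all 40 were below 0 against CT26 and against CT26NYESO1 taken singly. Over all tested genes 51.6% were below 0, and 32.7% were below 0 against both lines. The list's median difference was −0.67 (range −1.24 to −0.10), beside −0.01 over all genes. Its median OK-432 effect was −0.36 in CT26, −0.27 in CT26NYESO1 and −0.98 in LL2. These genes move together from library to library, so the 40 are not 40 separate observations. The list was written with earlier results of these data known, and its direction is not independent evidence. In whole tumours, fewer cells of a type and less RNA per cell cannot be told apart.

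**Figure D3:**
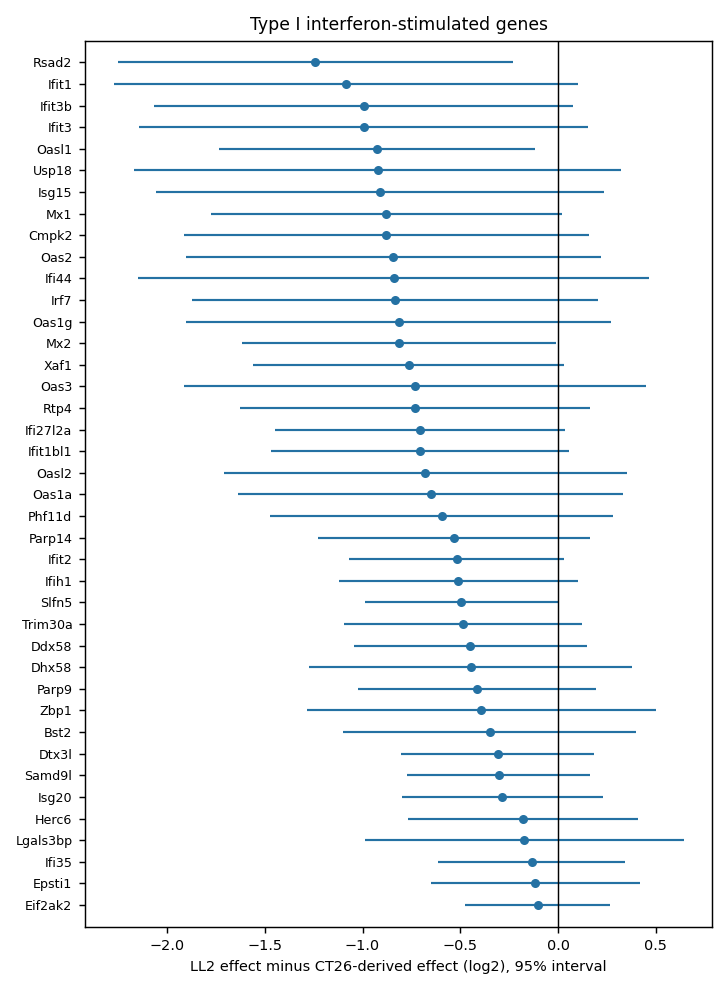
Difference of effects (horizontal axis, log2) with its 95% limma interval for each of the 40 type I interferon-stimulated genes, ordered by estimate. All 40 points lie below 0, and 3 intervals (Rsad2, Oasl1 and Mx2) exclude it before adjustment.

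The level of this list varied widely among LL2 controls. Its mean log2(TPM + 1) was 4.05, 5.36 and 4.90 in LL2 controls and 3.67, 4.44 and 3.44 in treated LL2 tumours, so the 2 groups overlapped. In CT26 it was 6.60, 6.78 and 6.43 in controls against 6.26, 6.36 and 6.13 in treated tumours, and in CT26NYESO1 5.92, 5.46 and 5.49 against 5.69, 5.20 and 5.24. The CT26 groups did not overlap and the CT26NYESO1 groups did. With LL2_Ctrl replicate 1 left out the list's median difference was −1.02, and with LL2_Ctrl replicate 2 left out it was −0.30.

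Rsad2, which encodes the antiviral enzyme viperin, had the lowest difference in the list, −1.24 (SE 0.47, 95% interval −2.25 to −0.23, unadjusted p = 0.0196, adjusted p = 0.696). LL2 controls had 9.07, 30.4 and 23.6 TPM and treated LL2 tumours 6.69, 12.2 and 5.90 TPM. CT26 controls were at 83.2, 95.7 and 63.7 TPM, treated CT26 tumours were at 61.2, 65.6 and 48.5 TPM, and CT26NYESO1 had 18.4, 19.2 and 17.2 TPM against 32.9, 18 and 39 TPM. Groups overlapped in all 3 tumour types, and the effect was −0.45 in CT26, 0.62 in CT26NYESO1 and −1.16 in LL2. Oasl1, of the oligoadenylate synthase family, had −0.93 (unadjusted p = 0.0274) and the dynamin-like antiviral GTPase Mx2 −0.81 (unadjusted p = 0.0473), with adjusted p of 0.76 and 0.8. No other member had an unadjusted p under 0.05. Oasl1 and Mx2 were chosen after their values were seen.

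Ifit1, a sensor of foreign RNA caps, had −1.08 (95% interval −2.27 to 0.10). LL2 controls had 13.8, 49.7 and 35.7 TPM, and treated LL2 tumours 9.37, 21.7 and 5.17 TPM. Treated LL2 replicate 2 was above LL2 control replicate 1, so the groups overlapped. CT26 was at 122 to 164 TPM in controls and 100.4 to 125 TPM in treated tumours, and CT26NYESO1 at 29.8 to 44.3 TPM against 23.6 to 35.0 TPM. Ifit3 had −0.995 (−2.14 to 0.15), the ubiquitin-like modifier Isg15 −0.91 (−2.05 to 0.24), the GTPase Mx1 −0.88 (−1.78 to 0.02), Oas2 −0.84 (−1.90 to 0.22) and the regulator Irf7 −0.83 (−1.87 to 0.21). Without LL2_Ctrl replicate 2 these 6 genes had −0.46 (Oas2) to −0.71 (Ifit1), and without LL2_Ctrl replicate 1 −1.28 (Mx1) to −1.60 (Ifit1). Without LL2_OK432 replicate 3, Ifit1 had −0.65 and Isg15 −0.54, their weakest values with a single library left out. Ifit3 and the near-identical Ifit3b share sequence, so the division of reads between them is uncertain.

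The signalling genes upstream of this list had smaller estimates. Of 23 listed interferon receptors and signalling genes 20 were tested, with a median difference of −0.06, 14 below 0 and none called. The receptor subunit Ifnar1 had −0.04 (−0.19 to 0.12). Stat2 had −0.47 (−1.19 to 0.25) and Irf9 −0.22 (−0.69 to 0.24), and both are themselves interferon-stimulated. Without LL2_Ctrl replicate 2 these were −0.23 and −0.045. The DNA sensor Cgas had −0.42 and the receptor subunit Ifngr2 0.18, with unadjusted p of 0.0261 and 0.0325 and adjusted p of 0.756 and 0.770. Cgas and Ifngr2 were chosen after their values were seen. Of 19 interferon ligands only Ifng passed the filter. Ifnb1, the type I ligand usually induced first, was at 0.567 TPM at most, and 9 of the 19 were listed at 0 in every library. Ifng, made by T and NK cells, was at 0.241, 0.343 and 0.171 TPM in LL2 controls and 0.164, 0.196 and 0.238 TPM in treated LL2 tumours, and its difference was 0.17 (−0.41 to 0.74).

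Interferon-gamma-induced genes had a median difference of −0.38 over 27 tested members, of which 21 were below 0 and 17 were below 0 against both lines. None was called and none had an unadjusted p under 0.05. The chemokine Cxcl10 had −0.79 (−1.85 to 0.28), the GTPase Irgm1 −0.45 (−1.27 to 0.38), Cxcl9 −0.44 (−2.26 to 1.39) and Gbp2 −0.38 (−1.47 to 0.71). Cxcl9 was at 4.77, 32.3 and 6.87 TPM in LL2 controls and 1.17, 9.23 and 7.67 TPM in treated LL2 tumours, so control replicate 2 stood above every other LL2 library. Without LL2_Ctrl replicate 2, Cxcl10 had −0.37, Irgm1 −0.15, Gbp2 0.052 and Cxcl9 0.33, so the last pair changed sign. The list's median was −0.71 without LL2_Ctrl replicate 1 and 0.05 without LL2_Ctrl replicate 2, so its sign rests on that library. Antigen presentation genes varied with the same libraries. Class I genes had a median of −0.14 (18 of 20 below 0), which was −0.44 without LL2_Ctrl replicate 1 and 0.09 without replicate 2, and class II genes a median of −0.12 (9 of 11 below 0), which was −0.38 and 0.13 without the same libraries. H2-K1 had −0.15, B2m −0.10, H2-Aa −0.26 and Cd274, which encodes PD-L1, −0.07, and all 4 intervals included 0.

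The median LL2 effects of neutrophil markers and of neutrophil chemoattractants lay between those of CT26 and CT26NYESO1, while single genes did not all do so. Of 26 listed neutrophil markers 25 were in the table and 16 passed the filter, a filter that a marker can pass through treated tumours alone. Their median OK-432 effect was 0.84 in CT26, 1.78 in CT26NYESO1 and 0.86 in LL2. The median difference was 0.06 against CT26, −0.64 against CT26NYESO1 and −0.29 against their mean, with none called. Of the 16, 6 were below 0 against both lines and 2 above 0 against both. The median against the mean was −0.50 without CT26NYESO1_OK432 replicate 2, −0.55 without LL2_OK432 replicate 3 and −0.18 without CT26NYESO1_OK432 replicate 1. Against CT26, 10 of 16 were above 0 (46.2% of all genes were), and against CT26NYESO1 14 of 16 were below 0 (48.6% of all genes were). The summed level of the 25 markers was 75.1 to 97.4 TPM in LL2 controls and 226 to 383 TPM in treated LL2 tumours. It was 68.7 to 86.6 TPM and 182 to 280 TPM in CT26, and 75.7 to 143 TPM and 213 to 1071 TPM in CT26NYESO1.

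S100a8 was at 5.22, 8.79 and 5.26 TPM in LL2 controls and at 41.0, 39.3 and 62.3 TPM in treated LL2 tumours. Treated CT26 tumours had 35.9, 26.3 and 50.2 TPM and treated CT26NYESO1 tumours 183, 19.6 and 123 TPM, so replicate 2 of the last group lay below all treated LL2 and CT26 libraries. Its difference of effects was −1.02 (95% interval −2.66 to 0.61), made up of −0.14 against CT26 and −1.91 against CT26NYESO1. S100a9 had −1.28 (−2.96 to 0.39), made up of 0.31 against CT26 and −2.88 against CT26NYESO1, which lie on opposite sides of 0. Without CT26NYESO1_OK432 replicate 2 the values against the mean were −1.50 for S100a8 and −1.80 for S100a9. The chemokine Cxcl2, a ligand of the neutrophil receptor Cxcr2, had −1.10 (−2.76 to 0.55), with −0.53 against CT26 and −1.68 against CT26NYESO1. Cxcl1 had −0.46 (−2.39 to 1.47), with 0.82 against CT26 and −1.74 against CT26NYESO1, and it was −1.04 without CT26NYESO1_OK432 replicate 2 and −0.083 without LL2_OK432 replicate 2. For the 9 tested chemoattractants and receptors the median was 0.60 against CT26 and −1.18 against CT26NYESO1. Acute phase and antimicrobial genes had medians of 0.12 and −0.69 over 10 tested members, and Saa3 had −0.56 (−2.61 to 1.5) against the mean of both lines, −1.26 without LL2_OK432 replicate 3 and −0.11 without LL2_OK432 replicate 1.

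**Figure D4:**
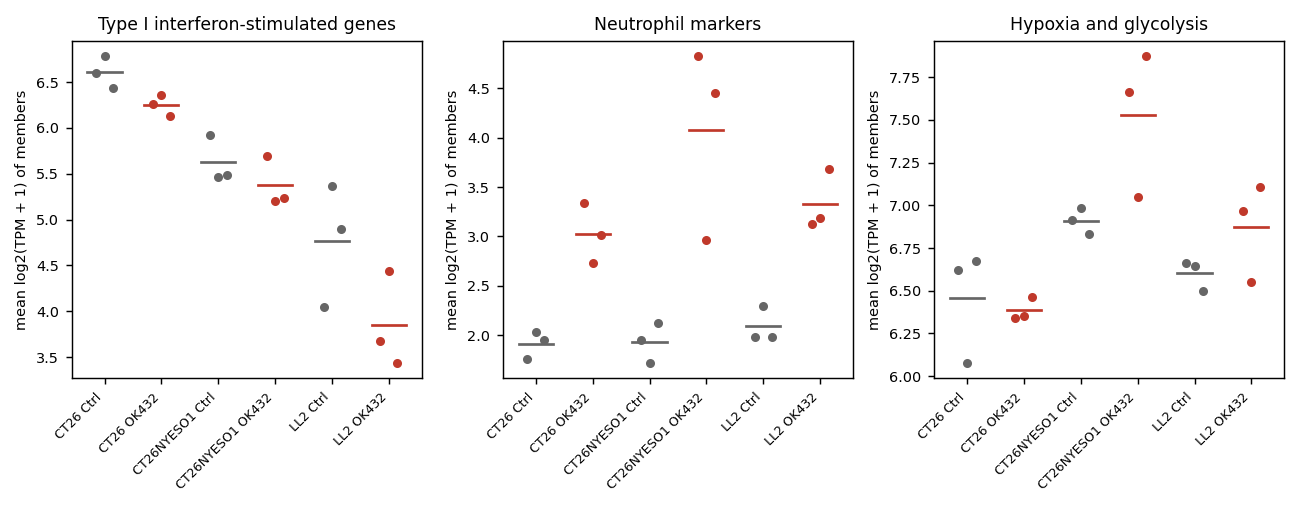
Mean log2(TPM + 1) of the tested members of 3 lists (vertical axes) in each library, by group (horizontal axes), with controls in grey, OK432 in red and a line at the group mean. LL2 groups overlap for interferon-stimulated genes, all treated libraries exceed their controls for neutrophil markers, and treated CT26NYESO1 replicate 2 (middle red point of that group) is lowest of its group in neutrophil and hypoxia genes.

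Without CT26NYESO1_OK432 replicate 2, the comparison of LL2 with CT26NYESO1 had 16 genes called higher and 41 called lower by limma, in place of 0 and 1. Lower effects in LL2 then included S100a9 (−3.92), Cxcl1 (−2.90), the lipolysis inhibitor G0s2 (−2.88), S100a8 (−2.86), Il1b (−2.40), the stefin gene Stfa2l1 (−2.15) and Il6 (−0.99). Higher effects included the mitochondrial importer Timm23 (0.33), the ATP-binding protein Abcf2 (0.36), the exchange factor Rcc1 (0.44) and the ribosome biogenesis factors Pno1 (0.50) and Nhp2 (0.53). Against the mean of both CT26-derived lines, Eif3j2 was still the 1 gene called. These genes were chosen after their values were seen, S100a8, S100a9, Cxcl1, Il1b and Il6 excepted. This fit is described because the library left out stood apart from its group in neutrophil genes. Calls of such genes without it follow in part from that choice and are not independent evidence.

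Hypoxia and glycolysis genes split by line. All 16 listed members were tested, with a median difference of −0.03 against the mean, and none was called. Against CT26 all 16 were above 0 (median 0.29), where 46.2% of all genes were. Against CT26NYESO1 all 16 were below 0 (median −0.38), where 48.6% of all genes were. Members of a list can move together, so the 16 are not 16 separate observations. The median against the mean was −0.18 without CT26NYESO1_OK432 replicate 2 and 0.063 without LL2_OK432 replicate 2. The list's mean level was 6.67, 6.64 and 6.50 in LL2 controls and 6.97, 6.55 and 7.10 in treated LL2 tumours, and the LL2 groups overlapped. It was 6.62, 6.08 and 6.68 in CT26 controls against 6.34, 6.35 and 6.47 in treated CT26, and 6.91, 6.98 and 6.83 in CT26NYESO1 controls against 7.66, 7.05 and 7.87 in treated CT26NYESO1. Vegfa, the angiogenic factor, had 0.37 (−0.28 to 1.03), which was 0.099 without LL2_OK432 replicate 3 and 0.64 without LL2_OK432 replicate 2. Immediate early and heat shock genes had medians of 0.31 and −0.24 over 16 members, and Fos had 0.02 against the mean.

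**Figure D5:**
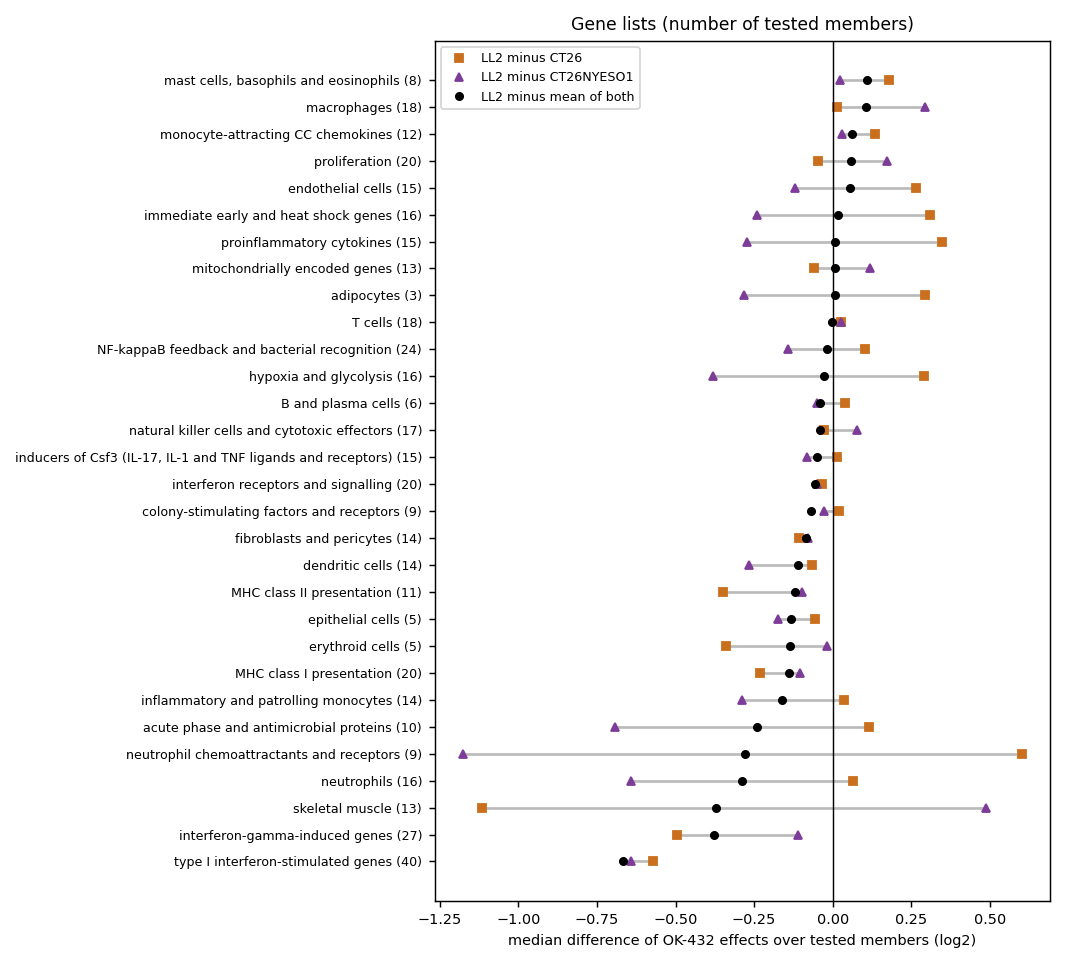
Median difference of OK-432 effects (horizontal axis, log2) over the tested members of each list (vertical axis, number tested in brackets), for LL2 against CT26 (squares), against CT26NYESO1 (triangles) and against their mean (circles). Type I interferon-stimulated genes have the lowest median against the mean, −0.67. Many lists have medians of opposite sign against the 2 lines, among them neutrophil chemoattractants, skeletal muscle, hypoxia and glycolysis, endothelial and proliferation genes.

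For markers of the other cell types, monocytes and skeletal muscle apart, the median differences from the CT26-derived mean lay between −0.14 and 0.11 with all libraries. A value near 0 against that mean can hold opposite differences against the lines taken singly. Against CT26 and CT26NYESO1 the medians were 0.27 and −0.12 for endothelial genes, and 0.29 and −0.28 for adipocyte genes (3 tested). For proliferation genes they were −0.05 and 0.17. The values that follow are against the mean. Macrophage markers had 0.10 over 18 members (Adgre1 0.20), T cell markers −0.00 over 18 (Cd3d −0.00), NK and cytotoxic genes −0.04 over 17 (Ncr1 0.16), dendritic cell markers −0.11 over 14 (Flt3 −0.29) and B and plasma cell genes −0.04 over 6 (Cd79a −0.10). Mast cell, basophil and eosinophil genes had 0.11 (Cpa3 0.04), endothelial genes 0.06 (Pecam1 0.15), fibroblast and pericyte genes −0.09 (Col1a1 0.10), epithelial genes −0.13 (Cdh1 −0.13), adipocyte genes 0.01 (Cfd −0.14) and erythroid genes −0.14 (Hba-a1 −0.28). Proliferation genes had 0.06 (Mki67 0.07) and mitochondrially encoded genes 0.01 (mt-Nd1 0.12). No member of any of these lists was called. Leaving out 1 library moved several of these medians. Without LL2_OK432 replicate 3 the median was −0.45 for mast cell, basophil and eosinophil genes, −0.63 for erythroid genes, −0.27 for adipocyte genes and −0.25 for fibroblast and pericyte genes. Without LL2_OK432 replicate 1 it was 0.83 for mast cell, basophil and eosinophil genes, 0.42 for adipocyte genes and 0.15 for fibroblast and pericyte genes, and without LL2_Ctrl replicate 3 it was 0.25 for erythroid genes. T cell markers ran from −0.13 without LL2_Ctrl replicate 1 to 0.25 without LL2_Ctrl replicate 2, and NK and cytotoxic genes from −0.19 to 0.22 without the same libraries.

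Monocyte genes had a median difference of −0.16 over 14 tested members, with members on both sides. Ly6c2, a marker of inflammatory monocytes that is also interferon-responsive, had −0.93 (95% interval −1.94 to 0.09), which was −1.42 without LL2_Ctrl replicate 1 and −0.45 without LL2_Ctrl replicate 2. Its difference was −0.50 against CT26 and −1.35 against CT26NYESO1, from effects of −1.21 in CT26, −0.36 in CT26NYESO1 and −1.71 in LL2. It was at 14.4, 58.0 and 30.2 TPM in LL2 controls and 5.99, 11.8 and 7.97 TPM in treated LL2 tumours, which did not overlap. Treated CT26 libraries (25.2, 19.0 and 16.8 TPM) likewise all lay below the CT26 controls (42.0, 53.8 and 47.8 TPM). The CT26NYESO1 groups overlapped, so separation of the groups was not particular to LL2. The chemokine receptor Ccr2 had −0.53 and Ly6c1 0.83, with unadjusted p of 0.0391 and 0.0160 and adjusted p of 0.789 and 0.682. Ccr2 and Ly6c1 were chosen after their values were seen. Among CC chemokines that attract monocytes the median was 0.06 over 12 members, and Ccl2 had 0.49 (−0.39 to 1.37). NF-kappaB feedback and bacterial recognition genes had a median of −0.02 over 24 members, with Tlr2 at −0.06.

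Skeletal muscle genes varied widely among libraries of the same group. Their median difference was −0.37 over 13 tested members, −1.11 against CT26 and 0.49 against CT26NYESO1, and from −1.01 without LL2_OK432 replicate 3 to 0.44 without LL2_OK432 replicate 1. The summed level of the 14 markers was 99.5 to 209 TPM in LL2 controls, 29.9 to 479 TPM in treated LL2 tumours and 7.75 to 186 TPM in the 6 CT26 libraries. Acta1, skeletal actin, had a difference of −1.27 with an interval of −6.34 to 3.81, and −0.19 without LL2_OK432 replicate 1. The part of muscle RNA in the other differences was not tested.

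Slc13a3, which encodes a sodium-coupled dicarboxylate transporter, was among the genes with the smallest p for a higher effect in LL2. It was at 3.80, 4.87 and 2.87 TPM in LL2 controls and 8.78, 13.5 and 20.0 TPM in treated LL2 tumours, which did not overlap. In the CT26 and CT26NYESO1 libraries it was at 0.351 to 1.88 TPM, with overlapping groups in both lines. The difference of effects was 1.34 (SE 0.28, 95% interval 0.75 to 1.93, unadjusted p = 0.000179, adjusted p = 0.478), and it was called without LL2_OK432 replicate 1 (1.62, adjusted p = 0.0441). Within LL2 it rose (effect 1.59, adjusted p = 0.0198).

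The remaining genes of smallest p for a higher effect in LL2 were Taf10, 0610012G03Rik, the small nuclear RNA gene Gm23851 and the mitochondrial tRNA gene mt-Tg, and none was called. Taf10, a subunit of the general transcription factor TFIID, was at 36.4, 35.8 and 33.5 TPM in LL2 controls and 43.2, 48.3 and 45 TPM in treated LL2 tumours, without overlap. In CT26 it was at 39.7, 42.2 and 38.9 TPM against 37.3, 33.8 and 38.6 TPM, and the effect was −0.14 there, −0.27 in CT26NYESO1 and 0.36 in LL2. Its difference was 0.56 (0.34 to 0.78, adjusted p = 0.456), with 0.66 for 0610012G03Rik, 0.74 for Gm23851 and 0.94 for mt-Tg. Short RNA genes are poorly measured by a library made from mRNA.

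On the lower side the genes of smallest p after Eif3j2 were Glcci1, Cetn4, Zfp395 and the lysosomal protease Ctsl, all with adjusted p of 0.478. Glcci1, a glucocorticoid-induced transcript, was at 4.19, 4.36 and 3.42 TPM in LL2 controls and 2.69, 3.01 and 2.1 TPM in treated LL2 tumours. In CT26NYESO1 it was at 7.37, 6.68 and 6.52 TPM against 11.3, 8.58 and 8.01 TPM. The groups did not overlap in either line and lay in opposite order, with a difference of −0.67 (−1.0 to −0.34). Cetn4 had −0.76, Zfp395 −0.44 and Ctsl −0.41, and the LL2 groups did not overlap for any of them. Genes of smallest p in either direction, Slc13a3 and Taf10 among them, were picked on these same values. Their lack of overlap is therefore no added evidence.

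Further genes were singled out after their values were seen. Plau, the urokinase plasminogen activator, had 0.66 (0.32 to 0.998, adjusted p = 0.478). It was at 208, 215 and 198 TPM in LL2 controls and 277, 191 and 305 TPM in treated LL2 tumours, and it was called without LL2_OK432 replicate 2 (0.86, adjusted p = 0.0107). Cstdc4, of the cystatin family, had −1.61 (−2.54 to −0.69, adjusted p = 0.544), with effects of 1.98 in CT26, 2.79 in CT26NYESO1 and 0.77 in LL2. The ribosome biogenesis factors Nhp2, Pno1 and Imp4, the polyamine enzyme Srm, Abcf2, Timm23 and Rcc1 had differences of 0.25 to 0.36 and adjusted p of 0.478 to 0.532.

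The largest difference of all tested genes was that of Kctd12, 5.01 (95% interval 0.81 to 9.21, adjusted p = 0.735), also chosen after its value was seen. It was listed at 0 in all 3 LL2 controls and at 17.7, 19.2 and 19.5 TPM in treated LL2 tumours. CT26_Ctrl replicate 3, CT26_OK432 replicate 2 and CT26NYESO1_OK432 replicate 3 were also listed at 0, and the remaining libraries were at 21.5 to 32.7 TPM. The microRNA gene Mir5130 lies inside Kctd12 (chromosome 14, 102982549 to 102982632, within 102976581 to 102982637, same strand, mm10). It was at 5.84 to 14.1 TPM in exactly the 6 libraries with Kctd12 at 0, and at 0.013 TPM at most in the other 12. Its difference of effects was −3.94, and the 2 genes share sequence, so how reads were divided between them is uncertain.

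Eif3j2, the called gene, encodes a copy of a subunit of translation initiation factor 3. It is a single-exon gene on chromosome 18 (43475418 to 43477796, minus strand, mm10). LL2 controls had 13.9, 13.9 and 13 TPM, and all 3 treated LL2 libraries were listed at 0. CT26 libraries were at 47.9 to 53.5 TPM and CT26NYESO1 libraries at 27.3 to 33.3 TPM, with effects of −0.09 and −0.10. The difference of effects was −3.77 on the log2(TPM + 1) scale (SE 0.08, 95% interval −3.94 to −3.61, limma adjusted p = 7.2e-15), a size that depends on the pseudocount, since a level listed at 0 has no fold.

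Eif3j1, the multi-exon gene of the same subunit, lies on chromosome 2 (122028546 to 122056598), and its transcript matched that of Eif3j2 at 99.8% of 2369 aligned bases, with 4 mismatches. Reads from the pair can be divided between them in more than 1 way. Eif3j1 was at 49.6, 51.1 and 49.8 TPM in LL2 controls and 53.0, 50.2 and 54.5 TPM in treated LL2 tumours. With the 2 genes summed, LL2 controls had 63.8 ± 1.10 TPM (SD, n = 3) and treated LL2 tumours 52.6 ± 2.14 TPM (SD, n = 3). The summed pair had a difference of effects of −0.19 and was not called (limma adjusted p = 0.649), so with the copies summed no tested gene was called.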

How the data were processed

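Bulk RNA sequencing was done on 18 mouse tumour libraries, using TRIzol extraction and stranded mRNA library preparation (labels' protocols). The authors deposited TPM values for 55291 genes, with the same total in every library. Trim Galore 0.6.5, STAR 2.7.3a, StringTie 2.1.2 and mm10 are named in the submitters' processing notes. Their annotation, strand setting and filters were not given in the sources used here. Because TPM does not carry depth, the number of reads is unknown and counting intervals were not computed. TPM is a share of the library, and a gene can be listed at 0 where reads went to a near copy.

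Genes with at least 1 TPM in at least 3 libraries were fitted as log2(TPM + 1), a scale that understates changes of low genes. The fit used limma 3.58.1 in R 4.3.3, with 6 group means, trended and robust empirical Bayes shrinkage, 12 residual degrees of freedom, no covariate, and Benjamini-Hochberg adjustment over all 16816 genes. Tests are two-sided, and every adjusted p is from limma. The procedure was tested on simulated data.

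Members, 31 gene lists and tests were chosen with earlier results of these data known, so lists were given no test. Named genes are the called genes with a group mean of at least 5 TPM, at most 10 in each direction. Each direction was filled to 5 with the smallest p. A panel of immune genes and the first tested member of each list with no call were added. Other genes named in the text lie outside this rule and were chosen after their values were seen. Positions come from GENCODE M21 (mm10), which held 16472 of the 16816 tested symbols, and promoters from RefSeq. Alternatives were the pseudocount, filter, scaling, shrinkage, array weights, a replicate block, pairwise fits and each library left out.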

Additional observations from a re-analysis of the deposited data

Results flagged for a closer look

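Eif3j2 was the 1 gene whose OK-432 effect differed between LL2 and the CT26-derived tumours by a test of the difference itself, at −3.77 on the log2(TPM + 1) scale (limma adjusted p = 7.2e-15). All 3 treated LL2 libraries were listed at 0 and all 3 LL2 controls were at 13 to 13.9 TPM. With the near-identical Eif3j1 added to it, the difference was −0.19 (adjusted p = 0.649).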

How the results depend on the processing

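Of 1862 values of named genes under 26 alternatives, 1787 kept their direction and their side of the threshold. These values are differences from the CT26-derived mean. Of the 72 genes 71 were not called, and for them keeping the side of the threshold means staying uncalled. The difference of Slc13a3 was called without LL2_OK432 replicate 1 (1.62) and that of Plau without LL2_OK432 replicate 2 (0.86). In 21 genes that were not called, among them Cxcl9 and Gbp2, the estimate changed sign under at least 1 alternative, and with each library left out in turn they ran as follows: Csf3r −0.26 to 0.14, Il6 −0.25 to 0.14, Tnf −0.092 to 0.15, Gbp2 −0.74 to 0.0523, Cxcl9 −0.93 to 0.33, H2-K1 −0.44 to 0.19, B2m −0.31 to 0.16, Cd274 −0.34 to 0.20, H2-Aa −0.62 to 0.13, Il17ra −0.14 to 0.0321, Tlr2 −0.13 to 0.0019, Cd3d −0.24 to 0.24, Ncr1 −0.0161 to 0.33, Cpa3 −0.70 to 0.89, Pecam1 −0.00849 to 0.32, Col1a1 −0.74 to 0.80, Cdh1 −0.22 to 0.00596, Cfd −0.95 to 0.42, Hba-a1 −0.81 to 0.25, Fos −0.20 to 0.17, Mki67 −0.0196 to 0.16. The sign also changed for Cpa3 with a pseudocount of 0.1 TPM (−0.056), for Il6 with median-of-ratios rescaling (−0.0047) and for Cd3d with quantile normalization (0.014). The cause was not tested.

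Counts of called genes, higher and lower, were 0 and 1 in each of the 3 comparisons. With no filter on low values they were 5 and 6 against the CT26-derived mean, 8 and 8 against CT26 and 5 and 6 against CT26NYESO1, and apart from Eif3j2 the added genes had group means under 0.5 TPM. With each library left out in turn, the counts ran from 0 to 2 higher and 1 to 2 lower against the CT26-derived mean, from 0 to 1 and 1 to 2 against CT26, and from 0 to 16 and 1 to 41 against CT26NYESO1. Fits on 12 libraries alone gave 1 higher against CT26 (Csf3) and 3 lower against CT26NYESO1. With Eif3j1 and Eif3j2 summed, an alternative chosen after seeing the data, 0 were called lower against the CT26-derived mean, and 458 genes were lower at an unadjusted p under 0.05 as deposited. No scaling moved the median of all differences beyond −0.0085 to −0.00063.

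Replicate numbers were not treated as pairs in the main fit. Within a tumour type, same-numbered control and treated libraries correlated from −0.12 to 0.22 in their deviations from group means. Of these 9 pairs 1 passed 0.1. Differently numbered libraries were not compared, so these values cannot show whether the numbers pair the samples. With the replicate block the counts stayed at 0 higher and 1 lower in all 3 comparisons.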
